A study of Mus musculus with 12 samples.

Results

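The genes described here mark the cells of blood vessels in the brain. They are 32 endothelial and mural cell genes, taken as a named list of symbols out of the 52169 gene symbols in a table of RNA sequencing counts from mouse striatum. Each gene is represented by its most abundant transcript, and all 32 were found and passed the filter on low counts in every comparison. The rule uses gene names, but members were chosen with earlier results of these data known. Shares of members set beside those of all genes therefore describe the list and are no test of it. The list was arranged by role into 6 junction and adhesion genes, 5 growth factor receptors, 3 transporters, 3 transcription factors, 7 other endothelial genes, 5 pericyte genes and 3 smooth muscle genes.

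Endothelial cells line the capillaries of the brain, and tight junctions, adherens junctions and selective transporters make their layer the blood-brain barrier. Pericytes sit on the capillary wall and keep that barrier in place, whereas smooth muscle cells surround arterioles and set their diameter through contractile proteins. Vascular endothelial growth factor and angiopoietin receptors on the endothelium govern vessel growth and stability. In the striatum these cells are a minority among neurons and glia, so each value is a reading of vessel genes against the RNA of the whole tissue.

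Striata came from C57BL/6J mice, which the methods describe as female, with a unilateral 6-hydroxydopamine (6-OHDA) lesion. This toxin destroys dopamine neurons, and at 3 µg/µl it was placed in the right medial forebrain bundle under cover of desipramine (25 mg/kg), which spares noradrenergic neurons. Per the methods, the procedure lowers striatal tyrosine hydroxylase staining by at least 80%. After 2 weeks all mice received the dopamine precursor L-DOPA (10 mg/kg) with the peripheral decarboxylase inhibitor benserazide (7.5 mg/kg), given acutely as 1 injection or chronically as 9 daily injections, and were killed 1 h after the last dose. The 4 groups of 3 libraries were acute unlesioned, acute lesioned, chronic unlesioned and chronic lesioned striatum, each library made from 3 punches of 2 mm per the labels (the methods give 1 punch a hemisphere for gene expression by PCR). All mice had received desipramine, the unilateral lesion and L-DOPA, and the unlesioned side is the other hemisphere of such mice, so the lesion and the response to L-DOPA on the lesioned side cannot be told apart. The series notes speak of 12 mice with 3 per condition, while the methods use the unlesioned side of a mouse as its own control. In these counts libraries with the same number deviated together within each treatment, and results are therefore also given with the replicate number as a block wherever it changed a call. In simulated data the share of false calls was above the nominal one, more so with this block. Calls made with the block only are to be read with that limit. The labels name no run or dissection day, so such a difference between the acute and chronic libraries cannot be told apart from the treatment.

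Totals per library ran from 87695043 to 173116525 counts, and the lowest count of any of the 32 genes in any library was 30. The activity-dependent gene Fosb, used only as a check of the labels, lay between 8.37 and 9.31 CPM (counts-per-million) in the acute unlesioned striata and between 213 and 242 CPM in the acute lesioned striata. In the chronic libraries it lay between 4.24 and 5.02 CPM on the unlesioned side and between 138 and 145 CPM on the lesioned side. Drd1a, the dopamine D1 receptor of striatal neurons, lay between 62.5 and 76 CPM on the unlesioned sides and between 11.2 and 32.7 CPM on the lesioned sides. Th, the tyrosine hydroxylase gene, was also read as a check. It lay between 1.54 and 2.05 CPM in acute unlesioned and between 1.07 and 1.8 CPM in acute lesioned striata. In the chronic libraries Th was higher on the lesioned side, at 8.3 to 10.9 CPM against 1.77 to 1.95 CPM, and the reason was not tested. Chronic unlesioned replicate 2 stood apart in 12 choroid plexus and ependymal genes, which summed to 490 CPM there, of which the choroid plexus gene Ttr made 449 CPM. The other 11 libraries held between 6.88 and 17.7 CPM of these genes. That library also held the highest sum of 12 fibroblast and leptomeningeal genes, 35.4 CPM against 16.2 to 23.1 CPM elsewhere. Both libraries of acute replicate 2 stood apart in genes of activated endothelium and inflammation. Lcn2, the secreted iron-binding protein lipocalin 2, was at 6.65 CPM in acute unlesioned replicate 2 and at 8.28 CPM in acute lesioned replicate 2, against at most 0.0839 CPM in the other 10 libraries. Icam1, an adhesion receptor of activated endothelium, was at 2.76 and 2.73 CPM there, against at most 0.481 CPM elsewhere. Fits without both libraries are also given. They rest on fewer libraries and called fewer of all genes (acute lesion comparison 3.67% higher and 1.73% lower, against 8.16% and 7.16% with all). A call lost there therefore does not measure the part of this pair in the vessel values, which was not tested. Since the tissue is bulk, fewer vessel cells and less RNA per vessel cell give the same reading.

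The vessel genes were present in every library. Their summed level was 141 ± 11.3 CPM (SD, n = 3) in acute unlesioned, 172 ± 12.9 in acute lesioned, 127 ± 19.5 in chronic unlesioned and 152 ± 15.4 in chronic lesioned striata. Compared per kilobase of transcript, the level was highest for Slc2a1, which encodes the glucose transporter of the barrier, at a mean of 13.4 CPM per kb over 12 libraries. Next came Itm2a (5.26), the pericyte gene Vtn (4.79) and the pericyte regulator of G protein signalling Rgs5 (4.38). The order of these 3 differed between groups, with Vtn above Itm2a in the acute libraries (5.49 against 4.91 CPM per kb unlesioned, 5.98 against 4.81 lesioned), Rgs5 above Itm2a in the acute lesioned ones (5.39), and Itm2a above both in the chronic ones. The lowest level per kilobase was that of Anpep, a pericyte aminopeptidase, at 0.091 CPM per kb, followed by the growth factor receptor Kdr at 0.182 CPM per kb. Anpep was at 0.422, 0.317 and 0.225 CPM in acute unlesioned, 0.364, 0.463 and 0.391 in acute lesioned, 0.276, 0.292 and 0.255 in chronic unlesioned and 0.49, 0.314 and 0.319 in chronic lesioned libraries. Glia also make Slc2a1 message, and the counts do not separate the sources. The widest spread between libraries was that of Apold1, whose highest library was 10.1 times its lowest. Of the 32 genes, 18 ranged more than 2-fold over the libraries, and Pdgfrb, the platelet-derived growth factor receptor of pericytes, ranged least at 1.35-fold.

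Several genes followed the replicate number on both sides of the brain. The tight junction gene Cldn5 was at 5.52, 2.56 and 4.25 CPM in acute unlesioned replicates 1 to 3 and at 5.72, 2.88 and 4.53 CPM in acute lesioned replicates 1 to 3. Replicate 2 was low on both sides, while the difference between sides was small in each pair. Kdr and the transcription factor gene Sox18 were likewise lowest in replicate 2 on both sides of the acute libraries, whereas Vwf, the von Willebrand factor, was highest there. In the chronic libraries replicate 1 was lowest on both sides for Flt1, Eng and Rgs5. These patterns are visible as columns in the map of the 32 genes across libraries.

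**Figure D1:**
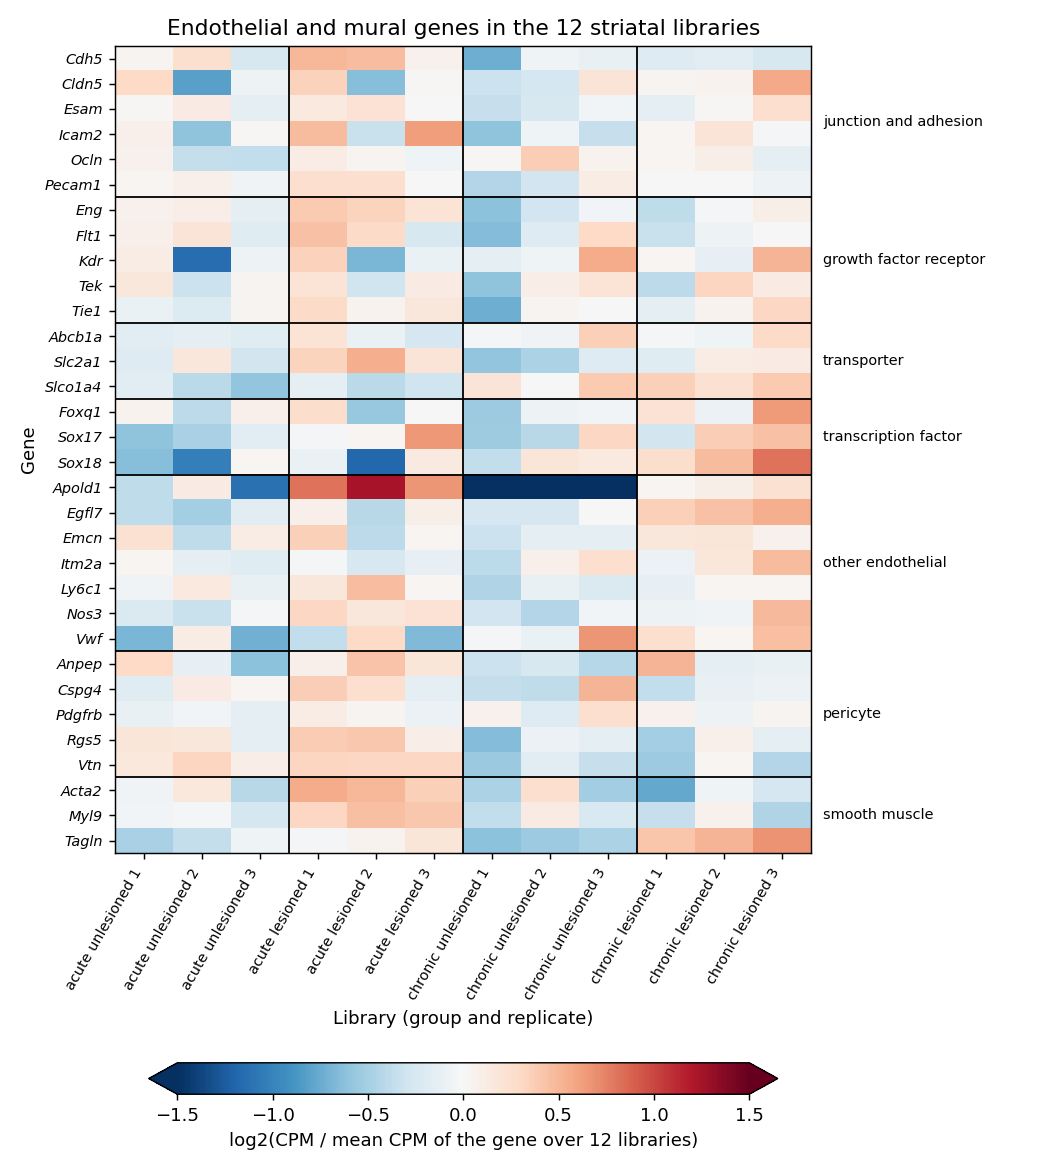
Map of the 32 vessel genes (rows, grouped by role) in the 12 libraries (columns), coloured by the log2 ratio of a gene's CPM to its own mean over the 12 libraries; colours saturate at 1.5 in either direction. Apold1 is low in all 3 chronic unlesioned libraries and high in the 3 acute lesioned libraries, and Tagln is highest in the 3 chronic lesioned libraries.

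The first comparison asked how the vessel genes of the lesioned striatum differed from those of the unlesioned striatum 1 h after a first dose of L-DOPA. Apold1 rose most, followed by Sox17 and by the smooth muscle genes Acta2 and Myl9, and no member was called lower. With edgeR's quasi-likelihood test at an adjusted p under 0.05, 7 of 32 genes were called higher (21.9%), against 8.16% of the 20402 genes tested. None was called lower, against 7.16% of genes; 0 members were lower at an unadjusted p under 0.05, and DESeq2 also called 7 higher and 0 lower. The median log2 fold change of the 32 genes was 0.23, whereas that of all genes was 0.02, and 31 of the 32 had a positive value. With the replicate block 13 were called higher (40.6%) against 13.2% of all genes, and 0 lower against 11.8% of all genes. The count depended on the libraries used, and it was 2 without acute unlesioned replicate 1, 4 without any 1 of acute unlesioned replicate 2, acute unlesioned replicate 3 or acute lesioned replicate 2, and at most 9 in the remaining cases. The share of all genes called higher in these fits lay between 5.11% and 7.57%, and it was 5.27% without acute unlesioned replicate 1, where 2 of 32 members is near that share. Without both libraries of acute replicate 2, a fit added after seeing the data, Apold1, Slc2a1 and Acta2 were the 3 genes called, against 3.67% of all genes called higher (7 with the block, against 8.15%), and the median was 0.20. When libraries were left out 1 at a time the median ran from 0.16 to 0.29.

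Apold1, an apolipoprotein L domain gene described as an early response gene of vascular endothelium, had the largest change in the list. Its transcript lies at chr6:134932019-134936854 on the plus strand of mm9. It was at 3.51, 4.99 and 2.11 CPM in the acute unlesioned libraries and at 8.03, 10.8 and 7.27 CPM in the acute lesioned libraries. All lesioned libraries lay above all unlesioned libraries, by 1.29 on the log2 scale (adjusted p 0.00351, standard error SE 0.23). The call held when any library was left out, with adjusted p up to 0.0264, and without both libraries of acute replicate 2, at 1.44 (adjusted p 0.00242). Replicate 2 was the highest on each side. A second, shorter Apold1 transcript gave 1.31, and no other gene overlaps the locus at 0.1 CPM or more.

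Acta2, the smooth muscle actin gene, was at 1.52, 1.75 and 1.18 CPM in acute unlesioned and at 2.32, 2.23 and 2.02 CPM in acute lesioned libraries. Its log2 fold change was 0.56 (adjusted p 0.0177, SE 0.13). The groups did not overlap, but the call was lost without acute unlesioned replicate 1, acute unlesioned replicate 3 or acute lesioned replicate 2, with adjusted p up to 0.0619. Myl9, the regulatory light chain of smooth muscle myosin, was at 2.14, 2.19 and 1.84 CPM in acute unlesioned and at 2.74, 3.01 and 2.93 CPM in acute lesioned libraries. Its log2 fold change of 0.49 (adjusted p 0.0069, SE 0.10) stayed called when any library was left out, but not without both libraries of acute replicate 2 (0.51, adjusted p 0.0636). Tagln, which encodes the actin-binding protein transgelin, was at 1.79, 1.96 and 2.39 CPM against 2.46, 2.6 and 2.84 CPM, a log2 fold change of 0.37. The groups did not overlap either, and the adjusted p of Tagln was 0.0565 without the block and 0.00659 with it.

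The promoters of the 3 genes with the clearest acute change and an entry in RefSeq are shown because Acta2 and Myl9 moved together and Apold1 moved most. Each is the 250 bases before the start site, written 5′ to 3′ on the strand of the gene, from RefSeq on GRCm38.p6, a later build than the mm9 of the counts. The windows are chr19:34255374-34255623 (minus strand) for Acta2, chr2:156775214-156775463 (plus strand) for Myl9 and chr6:134981751-134982000 (plus strand) for Apold1. Capitals mark matches, found by a script, to the CArG box with at most 1 C or G in its middle, the site of serum response factor in smooth muscle genes, or to TGACG, the core of the cyclic AMP response element, both searched on either strand.
Acta2: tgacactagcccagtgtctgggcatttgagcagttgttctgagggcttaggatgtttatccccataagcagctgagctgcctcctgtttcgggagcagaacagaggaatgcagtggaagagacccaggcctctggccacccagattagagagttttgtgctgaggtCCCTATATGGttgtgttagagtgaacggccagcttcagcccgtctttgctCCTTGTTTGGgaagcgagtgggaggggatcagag
Myl9: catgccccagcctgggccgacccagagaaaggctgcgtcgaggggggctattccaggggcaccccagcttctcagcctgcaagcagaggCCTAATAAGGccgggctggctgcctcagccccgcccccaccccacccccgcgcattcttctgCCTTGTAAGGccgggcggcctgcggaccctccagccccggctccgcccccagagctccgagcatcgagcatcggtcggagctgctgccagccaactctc
Apold1: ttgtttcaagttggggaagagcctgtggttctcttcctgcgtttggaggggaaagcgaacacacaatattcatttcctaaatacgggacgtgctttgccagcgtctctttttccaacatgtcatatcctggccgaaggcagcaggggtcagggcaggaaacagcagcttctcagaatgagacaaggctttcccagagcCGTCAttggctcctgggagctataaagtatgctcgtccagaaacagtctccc

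Acta2 held 2 such CArG matches, CCCTATATGG and CCTTGTTTGG, starting 84 and 34 bases before the start site. Myl9 held 2, at 161 and 99 bases, and its CCTAATAAGG has no C or G in the middle. Apold1 held no CArG match and 1 match to TGACG, read here as CGTCA, 52 bases before the start. Over the 21 members with a promoter entry, 7 had a CArG match, 3 had TGACG, 1 (Flt1) had the palindrome TGACGTCA, which includes TGACG, and 0 had TGANTCA. Of 27025 promoters of the same length, 8.65% held the CArG match, 1.40% the box without any C or G in the middle (a subset of the former), 17.9% TGACG, 1.62% TGACGTCA and 6.87% TGANTCA. A match is only a run of letters. Nos3, Foxq1, Sox17, Pdgfrb, Cdh5, Pecam1, Tagln, Icam2, Sox18, Esam and Vwf had no entry in the table.

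Among transporters, Slc2a1 was at 30.2, 38.9 and 28.6 CPM in acute unlesioned and at 43.3, 50.5 and 39.4 CPM in acute lesioned libraries. The lesioned libraries were all higher, by a log2 fold change of 0.45 (adjusted p 0.0238, SE 0.11). The call was lost without acute unlesioned replicate 1, acute unlesioned replicate 3 or acute lesioned replicate 2 (adjusted p up to 0.112). An antisense transcript over the end of Slc2a1, LOC100503370, also gave 0.45. The counting is not stated to use strand, so reads where the pair overlaps cannot be told apart. A Slc2a1 transcript that ends before LOC100503370 starts gave 0.42 (adjusted p 0.0428). Shorter ones that also end before it gave 0.39 and 0.38 and were not called (adjusted p 0.0679 and 0.075). The drug efflux pump Abcb1a and the organic anion transporter Slco1a4 had values of 0.14 and 0.11 and were not called.

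Nos3, the endothelial nitric oxide synthase, was at 1.58, 1.45 and 1.8 CPM in acute unlesioned and at 2.27, 2.06 and 2.12 CPM in acute lesioned libraries. The groups did not overlap, with a log2 fold change of 0.43 and an adjusted p of 0.0213. Eng, the endoglin co-receptor for transforming growth factor beta, was at 4.94, 5.06 and 4.25 CPM against 6.19, 5.94 and 5.44 CPM, a log2 fold change of 0.31 (adjusted p 0.0347). Sox17, a transcription factor of arterial endothelium, was at 0.547, 0.59 and 0.742 CPM against 0.819, 0.844 and 1.3 CPM, a log2 fold change of 0.67 (adjusted p 0.0416). All 3 genes separated the groups. The Nos3 call was lost without acute unlesioned replicate 1, acute unlesioned replicate 2 or acute lesioned replicate 1 (adjusted p up to 0.0855). Of the 6 fits that left out a library, Eng kept its call only without acute lesioned replicate 3 and Sox17 only without acute lesioned replicate 1, with adjusted p up to 0.124 and 0.143, and the Sox17 value was 0.42 without acute lesioned replicate 3. Eng and Sox17 each also lost the call under 4 of 12 other alternatives, and without both libraries of acute replicate 2 Nos3, Eng and Sox17 had adjusted p of 0.146, 0.142 and 0.14. The spans of Nos3 and Eng overlap other genes, namely Atg9b for Nos3 and Ak1, Fpgs and Garnl3 for Eng.

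The replicate block added 6 calls to these 7. Egfl7 was at 2.36, 2.15 and 2.74 CPM in acute unlesioned and at 3.23, 2.29 and 3.25 CPM in acute lesioned libraries, with overlapping groups and a rise in every pair. Cdh5, the cadherin of endothelial adherens junctions, gained a call at a log2 fold change of 0.34 and an adjusted p of 0.00849, and Rgs5 at 0.23 and 0.00561. Egfl7, which encodes a secreted protein of endothelium, was called at 0.28 with an adjusted p of 0.0338 and Ly6c1 at 0.23 with 0.0389. Tagln and the receptor gene Tie1 completed the list, the latter at 0.27 with 0.0492. Without the block these values moved with single libraries. Cdh5 ran from 0.21 without acute unlesioned replicate 3 to 0.46 without acute lesioned replicate 3, Rgs5 from 0.12 to 0.32 without the same libraries, Ly6c1 from 0.10 without acute lesioned replicate 2 to 0.31 without acute lesioned replicate 3, and Egfl7 from 0.21 to 0.43, the highest without acute lesioned replicate 2. Within pairs, 22 of the 32 genes (68.8%) were higher on the lesioned side in all 3 acute pairs, against 28.3% of the genes tested. By role, the junction and adhesion genes had acute values between 0.11 and 0.47, the growth factor receptors between 0.06 and 0.31 and the pericyte genes between 0.13 and 0.31. The genes Cldn5, Tek, Emcn, Foxq1 and Itm2a had values between -0.03 and 0.11 without the block, and none of them was called in either fit.

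**Figure D2:**
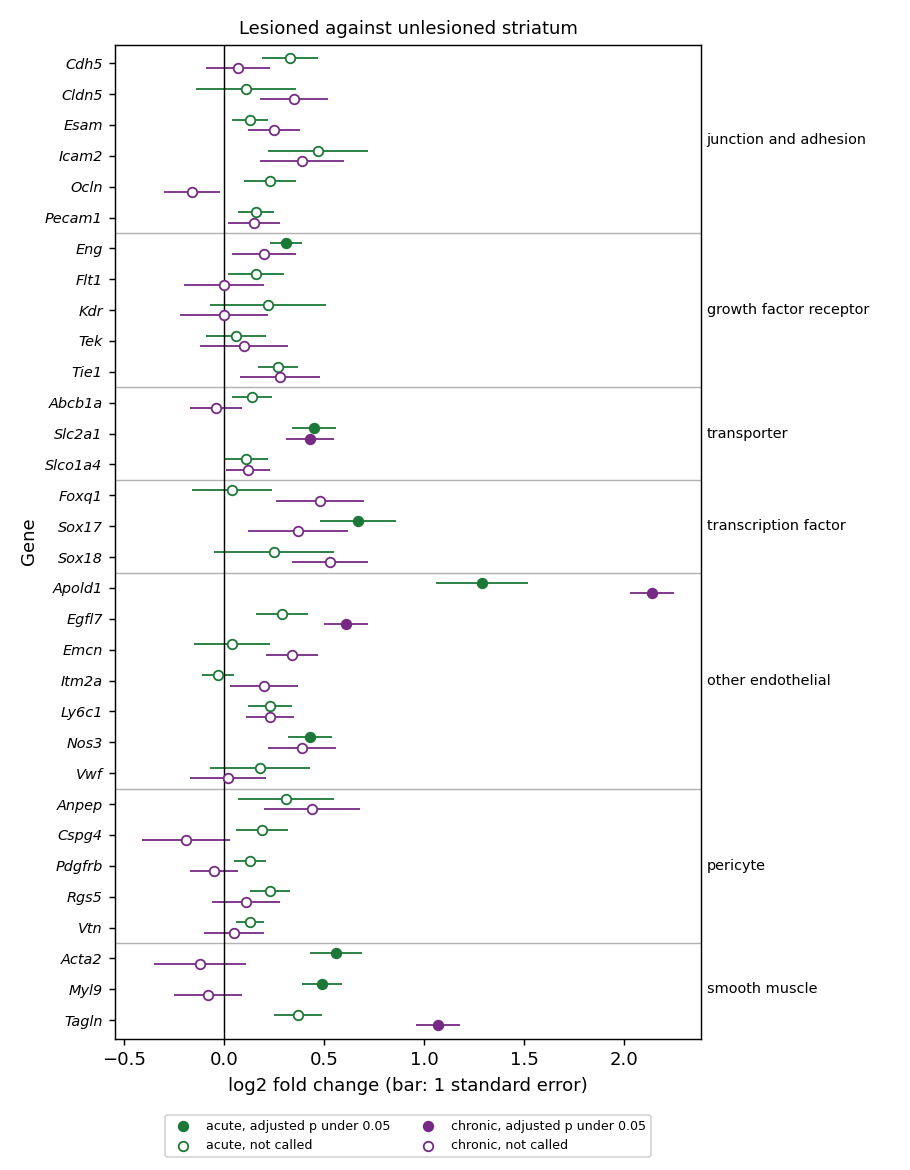
Log2 fold change of lesioned over unlesioned striatum for each of the 32 genes after acute (green) and chronic (purple) L-DOPA, from fits without the replicate block; bars are 1 standard error and filled points have an adjusted p under 0.05. Apold1 lies at 1.29 and 2.14, Tagln at 0.37 and 1.07, and Acta2 and Myl9 at 0.56 and 0.49 in the acute and -0.12 and -0.08 in the chronic comparison.

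After 9 daily doses the genes called in the same comparison of sides were Apold1, Tagln, Egfl7 and Slc2a1, in order of size. In the chronic libraries 4 of 32 genes were called higher (12.5%), against 8.46% of the 19742 genes tested, and 0 lower against 5.20%. At an unadjusted p under 0.05 7 were higher and 0 lower, and DESeq2 called 4 higher and 0 lower. The median of the 32 genes was 0.20 and that of all genes -0.01, and the former was 0.07 without chronic unlesioned replicate 1, 0.13 without chronic lesioned replicate 3 and 0.34 without chronic unlesioned replicate 3. With the replicate block 7 genes were called higher (21.9%) against 12.8% of all genes, and 0 lower against 11.4%. Only Apold1 and Slc2a1 were called in the lesion comparison of each treatment without the block.

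Apold1 was at 1.07, 1.14 and 1.17 CPM in chronic unlesioned and at 4.69, 4.86 and 5.37 CPM in chronic lesioned libraries. The replicates lay close together on each side, and the log2 fold change was 2.14 (adjusted p 4.41e-07, SE 0.11). Tagln was at 1.64, 1.72 and 1.81 CPM against 3.34, 3.56 and 4 CPM, a log2 fold change of 1.07 (adjusted p 0.000114, SE 0.11). Both calls held when any library was left out, with adjusted p up to 1.23e-05 for Apold1 and 0.00108 for Tagln. Egfl7 was at 2.58, 2.58 and 3.04 CPM against 3.91, 4.17 and 4.47 CPM, a log2 fold change of 0.61 (adjusted p 0.00397), and kept its call in every such fit. Its span overlaps the end of Agpat2 on the opposite strand, which had a log2 fold change of 0.37 (adjusted p 0.281) at a mean of 0.417 CPM.

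Tagln, at chr9:45737711-45744141 on the minus strand of mm9, shares 96 bases of its span with the end of Pcsk7 on the opposite strand. Pcsk7 had a log2 fold change of 0.43 (adjusted p 0.128) in the chronic lesion comparison. The shortest Tagln transcript, at chr9:45738055-45743980, starts beyond the end of the Pcsk7 transcript at 45737806, and it gave 1.10 with an adjusted p of 0.000144.

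Slc2a1 was at 22.8, 24.8 and 30.2 CPM in chronic unlesioned and at 30.3, 37.2 and 37.5 CPM in chronic lesioned libraries. The highest unlesioned library nearly reached the lowest lesioned one, and the log2 fold change was 0.43 (adjusted p 0.0408). That call was lost without chronic unlesioned replicate 1 or 2 or chronic lesioned replicate 2 or 3, with adjusted p up to 0.144, and under 2 of 10 other alternatives. The Slc2a1 transcript that ends before the antisense LOC100503370 gave 0.37 and was not called (adjusted p 0.0828), while LOC100503370 gave 0.50 (adjusted p 0.014). Acta2 and Myl9 did not separate here. Acta2 was at 1.13, 1.88 and 1.1 CPM in chronic unlesioned and at 0.922, 1.51 and 1.32 CPM in chronic lesioned libraries, a log2 fold change of -0.12 (adjusted p 0.807). Myl9 was at 1.71, 2.4 and 1.89 CPM against 1.74, 2.32 and 1.61 CPM, a log2 fold change of -0.08 (adjusted p 0.818). The highest unlesioned value of both genes was that of chronic unlesioned replicate 2, the library with high choroid plexus and leptomeningeal genes. Without that library Acta2 had a log2 fold change of 0.18 (adjusted p 0.644) and Myl9 of 0.07 (adjusted p 0.856). Acta2 was also positive without chronic lesioned replicate 1 (0.05, adjusted p 0.934) and Myl9 without chronic lesioned replicate 3 (0.03, adjusted p 0.952). Both were negative in the other fits that left out 1 library, so the sign of these values is not settled.

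The block brought in Cldn5, at a log2 fold change of 0.35 and an adjusted p of 0.00717, Nos3 at 0.38 and 0.0268, and Sox18, a transcription factor of endothelium, at 0.53 and 0.0136. In fits without the block that left out 1 library Cldn5 ran from 0.16 to 0.53 and Nos3 from 0.18 to 0.51, both lowest without chronic lesioned replicate 3 and highest without chronic unlesioned replicate 3, and Sox18 ran from 0.37 to 0.64. Cldn5 was higher on the lesioned side by 0.36, 0.32 and 0.38 in the 3 chronic pairs, while the groups overlapped. The 5 pericyte genes had values between -0.19 and 0.44 and none was called in either fit. The junction and adhesion genes had values between -0.16 and 0.39 and the 3 transcription factors between 0.37 and 0.53. The receptor genes Flt1 and Kdr, which bind vascular endothelial growth factor, both had a log2 fold change of 0.00. Across all 6 pairs of acute and chronic libraries, 13 of the 32 genes (40.6%) were higher on the lesioned side in every pair, against 11.2% of the 20682 genes tested in all 12 libraries.

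**Figure D3:**
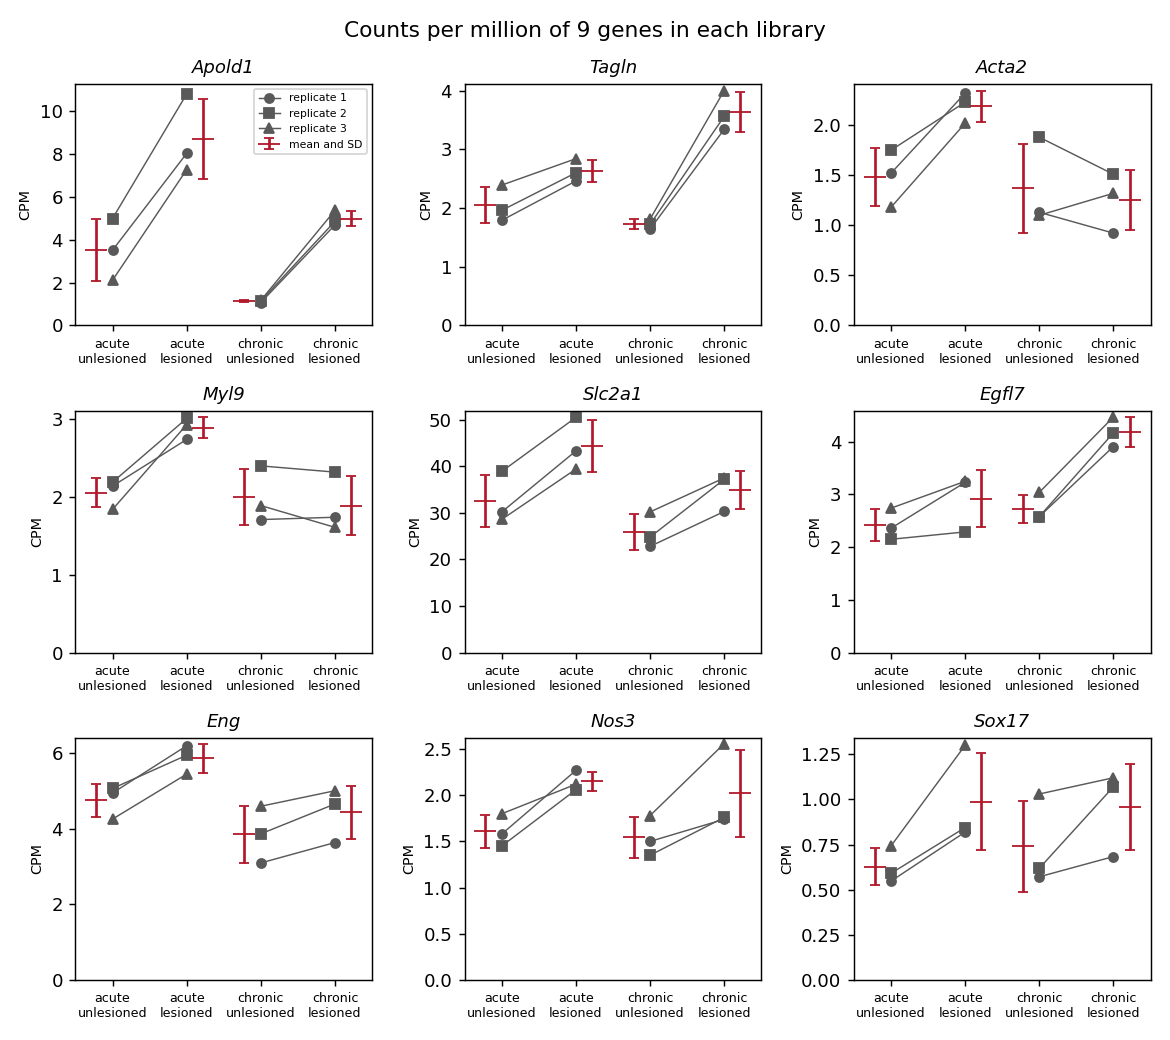
CPM of 9 vessel genes in each library, with lines joining libraries of the same treatment and replicate number and red bars for the mean and SD of 3 libraries. Apold1 falls from 3.53 to 1.12 CPM between the acute and chronic unlesioned means, Tagln is at 1.72 and 3.63 CPM in the chronic unlesioned and lesioned means, and Acta2 is at 1.48 and 2.19 CPM in the acute and 1.37 and 1.25 CPM in the chronic ones.

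Whether the lesion effect changed between treatments was tested as the interaction of lesion and treatment. Without the block Tagln alone was called, with a change of 0.71 in log2 fold change (adjusted p 0.0199, SE 0.16). That is 1 of 32 genes higher (3.12%) against 3.53% of the 20682 genes tested, and 0 lower against 1.56%. At an unadjusted p under 0.05 2 genes were higher and 2 lower, and DESeq2 called 1 higher and 0 lower. The Tagln call was lost without acute unlesioned replicate 3, acute lesioned replicate 1, acute lesioned replicate 2 or chronic lesioned replicate 3, where the adjusted p lay at or below 0.0599, and the change stayed between 0.59 and 0.80. Without both libraries of acute replicate 2 it was 0.73 (adjusted p 0.0879, and 0.0106 with the block). The shortest Tagln transcript gave 0.74 (adjusted p 0.0198), while Pcsk7 gave 0.66 (adjusted p 0.0932).

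With the block 2 genes were called higher, against 7.30% of all genes, and 2 lower, against 6.13%, which is 6.25% of the 32 genes in either direction and near the share of all genes. Apold1 had a larger lesion effect in the chronic libraries by 0.81 (adjusted p 0.00575, and 0.162 without the block). Without the block the Apold1 value ran from 0.53 without acute unlesioned replicate 2 (adjusted p 0.332) to 1.11 without acute unlesioned replicate 3 (adjusted p 0.0172). Acta2 and Myl9 had smaller lesion effects there, by -0.68 (adjusted p 0.0247, and 0.228 without the block) and -0.58 (adjusted p 0.0122, and 0.135 without the block). Leaving out chronic unlesioned replicate 2, in the fit without the block, moved Acta2 to -0.38 and Myl9 to -0.41, and Myl9 was called without chronic lesioned replicate 2, at -0.74 (adjusted p 0.0287). In this fit the 3 smooth muscle genes moved in different directions, Tagln upwards and Acta2 and Myl9 downwards.

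The third comparison set the chronic against the acute lesioned striata. Sox18, Slco1a4, Egfl7 and the smooth muscle gene Tagln were higher and 8 genes were lower. Those lower were 2 of the 5 pericyte genes (Vtn and Rgs5), the smooth muscle genes Acta2 and Myl9, and Apold1, Cdh5, Eng and Slc2a1. Of the 32 genes 12.5% were higher against 12.5% of the 19790 genes tested, and 25.0% were lower against 13.1%. The median of the 32 genes was -0.08 and that of all genes -0.02, and the former ran from -0.17 without chronic lesioned replicate 3 to -0.02 without chronic lesioned replicate 1. The number lower was 5 without acute lesioned replicate 1 or chronic lesioned replicate 1, 4 without acute lesioned replicate 2, and at most 10 in the other cases. The number higher was 2 without chronic lesioned replicate 3. In the same fits the share of all genes called lower ran from 6.45% to 16.5%, and it was 7.85%, 6.45% and 6.97% without acute lesioned replicate 1, chronic lesioned replicate 1 and acute lesioned replicate 2. The share called higher was 8.97% without chronic lesioned replicate 3.

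Acta2 fell from 2.19 ± 0.15 CPM (SD, n = 3) in the acute to 1.25 ± 0.3 CPM in the chronic lesioned striata, a log2 fold change of -0.80 (adjusted p 0.00564). Myl9 fell from 2.89 ± 0.14 to 1.89 ± 0.38 CPM, a log2 fold change of -0.61 (adjusted p 0.00979). Apold1 fell from 8.69 ± 1.8 to 4.97 ± 0.35 CPM, a log2 fold change of -0.80 (adjusted p 0.0021). Each of these 3 genes was lower in every chronic than in every acute lesioned library, and each call held when any library was left out.

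Vtn, the vitronectin gene that marks brain pericytes, was at 10.5, 10.4 and 10.4 CPM in acute lesioned and at 5.75, 8.57 and 6.15 CPM in chronic lesioned libraries. The 3 acute values lay close together and above all chronic values, a log2 fold change of -0.61 (adjusted p 0.00708). Rgs5 was at 23.3, 23.7 and 19.3 CPM against 12.6, 19 and 16.3 CPM, a log2 fold change of -0.46 (adjusted p 0.0295), and lost its call without replicate 1 or 2 of the acute or replicate 1 or 3 of the chronic libraries (adjusted p up to 0.116). Cdh5 was at 3.51, 3.42 and 2.59 CPM against 2.16, 2.23 and 2.1 CPM, a log2 fold change of -0.55 (adjusted p 0.0105, and 0.0534 without acute lesioned replicate 2). Eng at -0.40 and Slc2a1 at -0.34 had adjusted p of 0.0314 and 0.0411. Both lost the call without acute lesioned replicate 1 or 2 or chronic lesioned replicate 1, and Slc2a1 also without chronic lesioned replicate 3, with adjusted p up to 0.104 and 0.187. Under 8 other alternatives Eng lost the call 2 times and Slc2a1 5 times.

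Slco1a4, a barrier transporter of organic anions, was at 7.09, 5.91 and 6.35 CPM in acute lesioned and at 9.99, 9.1 and 10.2 CPM in chronic lesioned libraries. The chronic libraries were all higher, with a log2 fold change of 0.60 (adjusted p 0.0013, SE 0.09) that stayed called when any library was left out. Tagln rose by 0.47 (adjusted p 0.0108), while Pcsk7 rose by 0.73 (adjusted p 0.0031) and the shortest Tagln transcript by 0.46 (adjusted p 0.012). Egfl7 rose by 0.51 (adjusted p 0.0189, lost without acute lesioned replicate 2 or chronic lesioned replicate 3). Sox18 was at 0.879, 0.416 and 1.03 CPM against 1.13, 1.3 and 1.65 CPM, a log2 fold change of 0.79 (adjusted p 0.0481). Its call was lost without acute lesioned replicate 1 or 2 or chronic lesioned replicate 1 or 3 (adjusted p up to 0.169) and under 4 of 8 other alternatives, and the value was 0.52 without acute lesioned replicate 2.

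On the unlesioned side Slco1a4 was called higher and Apold1 and Vtn lower in the chronic than in the acute libraries. Without the block, which was not used here because numbers did not pair acute with chronic libraries, 1 of 32 genes was called higher (3.12%) against 1.07% of the 20290 genes tested, and 2 lower (6.25%) against 1.99%. The median of the 32 genes was -0.11 and that of all genes 0.00, and the former ran from -0.19 without chronic unlesioned replicate 3 to 0.03 without chronic unlesioned replicate 1. Apold1 fell from 3.53 ± 1.4 to 1.12 ± 0.051 CPM, a log2 fold change of -1.65 (adjusted p 0.0144). Its lowest acute library, at 2.11 CPM, still lay above all chronic unlesioned libraries. Vtn was at 9.32, 10.5 and 8.98 CPM in acute and at 5.7, 7.52 and 6.61 CPM in chronic unlesioned libraries, a log2 fold change of -0.53 (adjusted p 0.0277). Slco1a4 was at 6.96, 5.88 and 5.19 CPM against 8.9, 7.81 and 10.2 CPM, a log2 fold change of 0.58 (adjusted p 0.0336). All 3 genes separated the groups. Without chronic unlesioned replicate 2, the library with high choroid plexus genes, 2 members were called higher and 3 lower, against 5.44% and 6.63% of all genes. Without acute unlesioned replicate 1 or 2 or chronic unlesioned replicate 1 or 3, edgeR called 0 higher and 0 lower, and without acute unlesioned replicate 3 it called 0 higher and 1 lower, against 4 higher and 6 lower at an unadjusted p under 0.05 with all libraries. In those 5 fits the share of all genes called fell as well, to between 0.0194% and 0.257% higher and between 0.0484% and 0.511% lower.

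The values of the sides stand close for several genes. Slco1a4 was higher in chronic libraries by 0.60 on the lesioned and 0.58 on the unlesioned side, and Vtn lower by -0.61 and -0.53. All 8 genes called lower on the lesioned side also had a negative value on the unlesioned side, but those of Acta2 and Myl9 were only -0.12 and -0.04. Of the 4 called higher, 3 had a positive value there and Tagln had -0.24. The difference between sides in these values is the interaction given above.

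**Figure D4:**
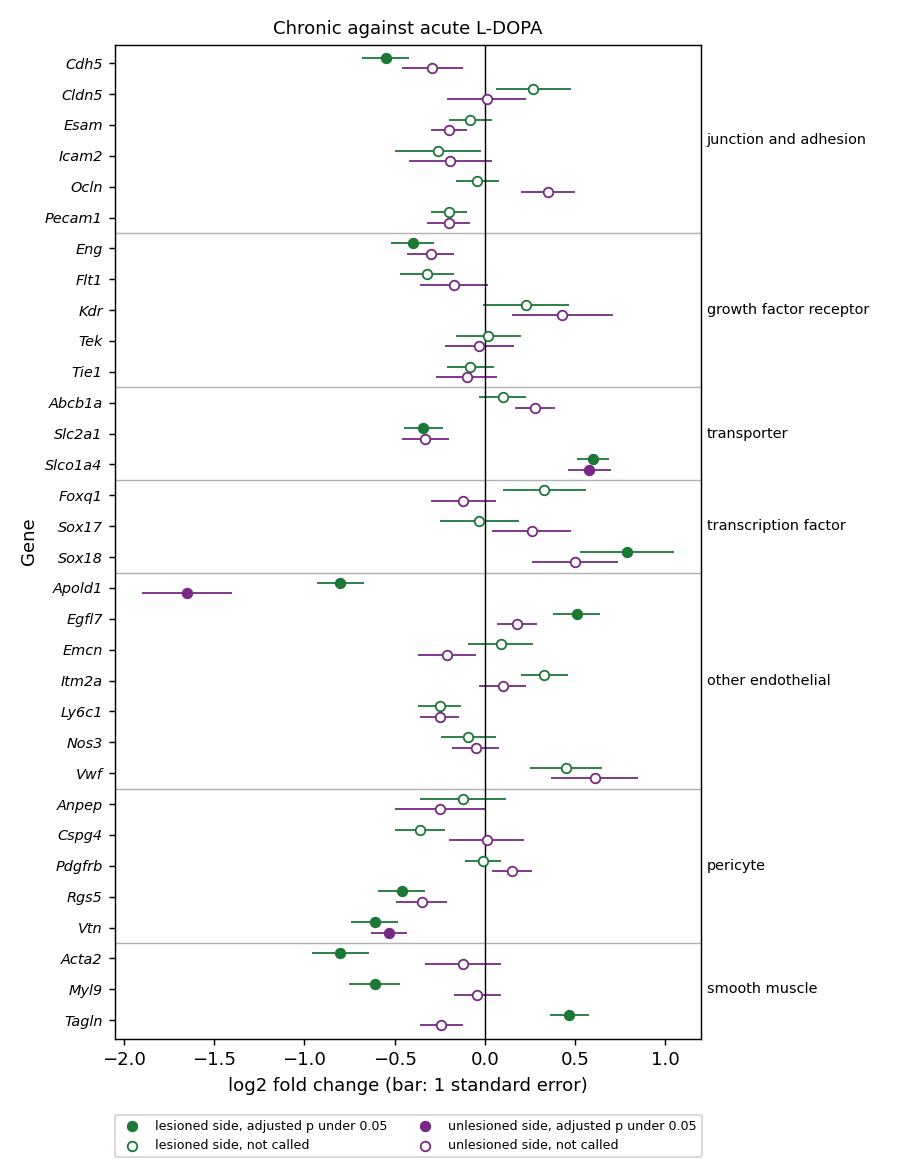
Log2 fold change of chronic over acute L-DOPA for each of the 32 genes on the lesioned side (green) and the unlesioned side (purple), from fits without a block; bars are 1 standard error and filled points have an adjusted p under 0.05. Vtn and Slco1a4 have nearly the same value on both sides, Acta2 and Myl9 are called lower on the lesioned side, and Apold1 is lower on both, at -0.80 and -1.65.

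Genes of other cells also differed between chronic and acute lesioned libraries. All 10 oligodendrocyte genes tested were called lower, with a median of -0.84, as were 8 of 13 genes of microglia and perivascular macrophages (median -0.61) and 4 of 5 blood cell genes (median -1.23). Of all genes 13.1% were called lower there. The sum of the 10 blood cell genes in the table was 5.37 to 11.1 CPM in acute lesioned and 1.91 to 3.69 CPM in chronic lesioned libraries. Microglial genes summed to 116 to 140 CPM and to 74.3 to 94.4 CPM, and oligodendrocyte genes to 2300 to 3810 CPM and to 1290 to 2290 CPM. On the unlesioned side 5 microglial genes (38.5%) and 1 oligodendrocyte gene (10.0%) were called lower, against 1.99% of all genes. The part of these cells in the lower vessel genes was not tested. In the lesion comparisons 11 cortical glutamatergic neuron genes had medians of -0.93 (acute) and -1.33 (chronic). Without the block 1 of them was called higher and 2 lower in the acute comparison, and 0 either way in the chronic one. Of all genes 8.16% rose and 7.16% fell in the acute comparison without the block. There 4 of 12 astrocyte genes rose (33.3%, and 8 or 66.7% with the block), Gfap by 1.25. Of 13 genes of microglia and perivascular macrophages, 5 rose and 1 fell in the acute comparison (7 and 1 with the block), C1qa by 0.47 (adjusted p 0.00188) and Ctss by 0.41 (adjusted p 0.0118). The 11 choroid plexus and ependymal genes tested there had a median of 1.06, with 1 called higher and 1 lower (5 and 1 with the block). With the block 7 cortical genes were called lower and 2 higher in the acute comparison, and 6 lower and 0 higher in the chronic one. Also with the block 7 oligodendrocyte genes rose in the acute and 5 fell in the chronic comparison, against 1 and 0 without it. Of all genes 13.2% rose and 11.8% fell with the block in the acute comparison, and 11.4% fell in the chronic one. The part of these cells in the vessel values was not tested either.

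Further lists of vessel genes, not members, were read in the same fits, and their counts stand beside the shares of all genes given above. Of 27 further endothelial genes tested, 6 were called higher in the acute lesion comparison (22.2%, against 8.16% of all genes), at a median of 0.27, and 12 with the replicate block (44.4%, against 13.2%). Ramp2, a receptor partner of adrenomedullin signalling in endothelium, rose by 1.10 (adjusted p 2.29e-05), and the endothelial surface receptor Cd93 by 0.78 (adjusted p 0.00254). In the chronic lesion comparison 2 rose (7.41%, against 8.46% of all genes, and 5 with the block), Ramp2 by 0.83 and the amino acid transporter Slc7a5 by 0.43. Between chronic and acute lesioned striata 11 were lower (40.7%, against 13.1% of all genes) and 2 higher, at a median of -0.41. The sphingosine 1-phosphate receptor S1pr1 fell by 0.87 (adjusted p 0.000176), and it fell by 0.61 (adjusted p 0.0182) on the unlesioned side. For the 23 further mural genes tested, 2 rose (8.70%, near the 8.16% of all genes) and 1 fell in the acute lesion comparison (4 and 1 with the block). In the chronic one 2 rose with the block only (8.70%, against 12.8% of all genes), and 5 fell between chronic and acute lesioned striata (21.7%, against 13.1%). The falls included the pericyte potassium channel subunit Kcnj8, at -0.65, and the myosin light chain kinase Mylk, at -0.46.

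Of 27 further barrier and transport genes, 4 rose in the acute (14.8%, against 8.16% of all genes) and 3 in the chronic lesion comparison (11.1%, against 8.46%), and 6 in each with the block. Between chronic and acute lesioned striata 3 rose and 3 fell (11.1% each, against 12.5% and 13.1% of all genes), Mfsd2a by 0.72 (adjusted p 0.00276) and the transferrin receptor gene Tfrc by 0.51 (adjusted p 0.0125) among those that rose. The lactate transporter gene Slc16a1 rose by 0.38 and 0.78, the lipid transporter gene Mfsd2a by 0.35 and 0.68, and Slc3a2, the heavy chain of amino acid transporters, by 0.37 and 0.48. Plvap, a component of endothelial fenestrae that the mature barrier largely lacks, was at 2.27, 2.24 and 2.09 CPM in chronic unlesioned and at 1.28, 1.17 and 1.19 CPM in chronic lesioned libraries. It fell by 0.86 (adjusted p 0.000652), and its lesion effect differed between treatments, chronic minus acute, by -1.06 (adjusted p 0.0119).

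Genes of signalling to vessel cells were read in the same way. Of 40 genes of vascular endothelial growth factor, angiopoietin, Notch, Wnt and endothelin signalling, 11 rose (27.5%, against 8.16% of all genes) and 2 fell in the acute lesion comparison (17 and 2 with the block). In the chronic one 8 rose (20.0%, against 8.46%) and 1 fell (9 and 2 with the block). Between chronic and acute lesioned striata 6 rose (15.0%, against 12.5%) and 8 fell (20.0%, against 13.1%). Vegfa, the growth factor that binds Kdr and Flt1, was at 7.87, 9.27 and 10.4 CPM in chronic unlesioned and at 36.8, 38 and 40.9 CPM in chronic lesioned libraries. The groups were far apart, by a log2 fold change of 2.07 (adjusted p 6.09e-07), beside values of 0.00 for its receptor genes Kdr and Flt1. Tgfb1, a ligand of the endoglin receptor complex, rose by 2.95 in the chronic and 0.49 in the acute lesion comparison, a change of 2.47 (adjusted p 4.19e-07). Hey1, a target of Notch, rose by 1.49 and 0.49, a change of 1.00 (adjusted p 0.000161). The transcription factor genes Klf4 and Klf2, which endothelium and other cells use, rose by 1.67 and 0.98 in the acute comparison and by 1.58 and 1.14 in the chronic one. Of 18 endothelial activation genes, 14 were tested in the acute lesion comparison. Of these 3 rose (21.4%, against 8.16% of all genes) and 6 with the block (42.9%, against 13.2%). In the chronic one 12 were tested, of which 4 rose (33.3%, against 8.46%) and 5 with the block (41.7%, against 12.8%). The inducible cyclooxygenase Ptgs2 rose by 2.32 and 4.79 in the acute and chronic comparisons, and the plasminogen activator Plat by 0.90 and 0.88. Neurons and glia also transcribe several of these genes, and the bulk counts do not say which cells the reads of any of them, Klf4 and Klf2 included, came from.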

How the data were processed

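Reads of TruSeq libraries were mapped to mm9 with the Genomatix Mining Station by the authors, who tested triplicates with DESeq; versions, counting rules and strand use are not given in the sources used here. The deposited values are raw read counts per transcript, and overlapping transcripts share reads. The deposited comparison tables, with the authors' fold changes, p-values and 36 repeated per-sample columns, were not used. Of 189660 transcripts, 296 without a symbol (0.0485% of counts) were left out.

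The libraries of a comparison (all 12 for the interaction) were fitted over all transcripts with edgeR 4.0.16 in R 4.3.3 (filterByExpr, TMM scaling, quasi-likelihood test). Adjusted p are Benjamini-Hochberg values over the transcripts tested. CPM use TMM-scaled totals of the 12 libraries, in which 3 counts come to at most 0.0347 CPM. Shares of genes called refer to the top transcript of each gene. The p-values measure the spread between these libraries. No pair of replicates agreed within counting noise (chi-square per degree of freedom at least 7.35).

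Same-numbered libraries correlated in their deviations from group means over 12794 genes (0.478, 0.444 and 0.39 acute, 0.519, 0.566 and 0.153 chronic, against a limit of 0.1), so the numbers were taken to pair the sides, although 1 chronic pair of unlike numbers also reached 0.155. Across treatments same-numbered libraries gave -0.163 to 0.249, not all above the limit, and were not paired. Members and lists were chosen with earlier results of these data known. Library values are given for members called in at least 1 comparison and for the highest and lowest members per kilobase; at most 4 genes of another list were named per comparison, those called with the largest changes and at least 1 CPM, and a gene so named in one comparison may be given in another. Ttr, Lcn2, Icam1 and the genes overlapping members were named after their values were seen. The fits were tested on simulated data of the lesion comparisons and the interaction, where the share of false calls was above the nominal one, more so with the replicate block. Alternatives were DESeq2 1.42.0, its size factors, no filter, 1 or summed transcripts per gene, all 12 libraries, the replicate block, removal of GC and length trends, and each library left out. The fit over genes with known GC content and those without both libraries of acute replicate 2 were added after seeing the data.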

Additional observations from a re-analysis of the deposited data

Results flagged for a closer look

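The interaction of lesion and treatment was called for 4 of the 32 vessel genes, 3 of them with the replicate block only. In simulated data the share of false calls was above the nominal one, more so with the block. With the block 6.25% of the 32 were called higher and 6.25% lower, against 7.30% and 6.13% of all genes, and without it 3.12% were called higher against 3.53%, so these shares are near those of all genes. Tagln had a larger lesion effect in the chronic libraries by 0.71 on the log2 scale, with an adjusted p of 0.0199 in edgeR without the replicate block and 0.00177 with it, and of 0.0879 and 0.0106 when both libraries of acute replicate 2 were left out. With the block Apold1 also had a larger effect, by 0.81 (adjusted p 0.00575), while the change was -0.68 for Acta2 (adjusted p 0.0247) and -0.58 for Myl9 (adjusted p 0.0122). In fits without the block that left out 1 library, Apold1 ran from 0.53 (without acute unlesioned replicate 2) to 1.11 (without acute unlesioned replicate 3), Acta2 from -0.82 to -0.38 and Myl9 from -0.74 to -0.41, and both genes were nearest 0 without chronic unlesioned replicate 2. In all 3 chronic pairs the Tagln difference between sides lay between 1.03 and 1.14, and in all 3 acute pairs between 0.25 and 0.45.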

How the results depend on the processing

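The count of members called higher in the acute lesion comparison moved from 7 to 4 with counts summed over transcripts (6.45% of all genes were then called higher), 3 with all 12 libraries in the fit (5.43%), 13 with the replicate block (13.2%), 3 without both libraries of acute replicate 2 (3.67%), and 11 with GC and length trends removed and the replicate block (14.4%), and it ranged from 2 to 9 when libraries were left out. In the chronic lesion comparison it moved from 4 to 7 with the block (12.8%) and 12 with trends removed and the block (19.2%). Between chronic and acute lesioned libraries the 8 called lower became 5 with summed transcripts (9.39%), and leaving out libraries gave 4 to 10 lower and 2 to 4 higher. On the unlesioned side summed transcripts gave 0 higher and 0 lower (0.158% and 0.312%), and leaving out libraries gave 0 to 2 higher and 0 to 3 lower. For the interaction the block gave 2 higher and 2 lower (7.30% and 6.13%), leaving out both libraries of acute replicate 2 gave 0 higher and 0 lower (1.83% and 0.472%) or, with the block, 2 and 2 (4.64% and 3.03%), trends removed with the block 4 higher and 2 lower (11.8% and 5.21%), and leaving out libraries 0 to 1 higher and 0 to 1 lower, while the median of the members ran from -0.16 to 0.10. Summing transcripts raised the mean log2 CPM over the members to 3.23 in acute unlesioned, 3.50 in acute lesioned, 3.16 in chronic unlesioned and 3.44 in chronic lesioned libraries, since overlapping transcripts are then counted repeatedly.

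Of 27 member calls without the block, 59 of 168 values with a library left out and 32 of 255 under other alternatives lost the call, and 0 changed sign. The cause of these moves was not tested. The block changed no call of a member beyond those given in the report. Lowly expressed members such as Anpep and Icam2 rest on few counts per library, down to 30.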
